A study of Homo sapiens with 4 samples.

Results

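SPIB sites called in both attached and suspended H1703 cells were described here by gene, sequence, tags and width. A site was an attached peak that overlapped a suspended peak on the same chromosome by at least 1 bp, together with its suspended partner. The rule kept 210 of 462 attached peaks (45.5%) and 212 of 9024 suspended peaks (2.35%). The sites were selected on the called peaks of both conditions, so tags, widths, fold and score are given below as a description. Position in genes and promoter sequence were not used by the rule.

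Chromatin immunoprecipitation with sequencing (ChIP-seq) had been done on H1703, a long-established line of human lung squamous carcinoma cells. All 4 libraries came from cells overexpressing SPIB, so no library without the factor stands beside them. Attached cells gave 1 library pulled down with anti-FLAG M2 and 1 input library with no antibody, and suspended cells gave the same pair. The treatment label names suspension for 24 h on every library, the attached ones included, so the groups rest on the condition label. With 1 ChIP library per condition there is no replicate check, and no p-value between conditions is given. After filtering, 21108364 attached and 20766909 suspended ChIP tags were left, beside 15878452 and 21437074 input tags.

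SPIB is a transcription factor of the ETS family. ETS factors bind DNA around a GGAA core, and the letters beside the core differ between subfamilies. SPIB and its close relative PU.1 favour purines before the core, as in GAGGAAGT, whereas factors such as ELK1 and GABPA favour ACCGGAAGT. SPIB is best known from B cells and plasmacytoid dendritic cells. REST, a zinc finger repressor that keeps neuronal genes silent outside the nervous system, binds a long element whose arms read CAGCACC and GGACAG.

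The PU.1-type word was found at 12 shared sites that lie on promoters, mostly within 50 bp of the summit, which is the point of highest tag density. Promoter windows came from RefSeq on GRCh38.p14 and run from 250 bases before to 50 bases after a gene start. Both peaks of a site overlapped 61 of the 35116 windows, at 47 of the 210 sites. GAGGAAGT on either strand was in 17 of these 61 windows (27.9%, exact Clopper-Pearson 95% interval 17.1 to 40.8). The stretches below are read on the strand that carries the word, which is in capitals, with 16 bases on either side, and are shown because they place an ETS word under peaks of both conditions. The authors' false discovery rate (FDR) of the attached peak was 100% at PRR14L, PRKD2, FAM120AOS, POLD4, HNRNPUL1 and SCG3. Among these sites it was lowest at UCP2, with 17.0%. The stretches are ordered by suspended tags.
OSMR (chr5:38845772-38845811, minus strand): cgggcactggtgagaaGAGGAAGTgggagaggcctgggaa
ABT1 (chr6:26596796-26596835, minus strand): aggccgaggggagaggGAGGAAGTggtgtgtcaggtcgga
CYB5R4 (chr6:83859570-83859609, minus strand): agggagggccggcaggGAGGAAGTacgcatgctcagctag
PRR14L (chr22:31750130-31750169, minus strand): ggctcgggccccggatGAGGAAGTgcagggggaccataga
UCP2 (chr11:73983219-73983258, minus strand): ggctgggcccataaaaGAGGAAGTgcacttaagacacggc
PRKD2 (chr19:46717089-46717128, plus strand): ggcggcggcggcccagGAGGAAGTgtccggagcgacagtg
DEPDC5 (chr22:31753862-31753901, plus strand): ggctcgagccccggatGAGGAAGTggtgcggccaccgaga
FAM120AOS (chr9:93453712-93453751, plus strand): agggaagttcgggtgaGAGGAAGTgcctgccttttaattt
RNPEP (chr1:201983304-201983343, minus strand): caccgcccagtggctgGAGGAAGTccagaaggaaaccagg
POLD4 (chr11:67353528-67353567, plus strand): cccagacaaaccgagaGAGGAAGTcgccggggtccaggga
HNRNPUL1 (chr19:41262510-41262549, plus strand): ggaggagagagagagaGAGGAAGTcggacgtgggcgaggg
SCG3 (chr15:51681428-51681467, minus strand): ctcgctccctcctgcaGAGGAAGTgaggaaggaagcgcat

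The word lay a median of 15.5 bp from the attached summit and 14.5 bp from the suspended summit of these 12 sites. It was within 50 bp of the attached summit at 10 sites and of the suspended summit at 9. The greatest distances were at SCG3, with 93 bp and 116 bp. At the suspended peaks that are not shared and have the word in a promoter window, the median distance was 62 bp over 78 peaks (95% order-statistic interval 36 to 128 bp), and 44.9% had it within 50 bp. The interval for the attached summits of the shared sites was 6 to 35 bp, and that for their suspended summits was 7 to 53 bp, which overlaps the interval of the unshared peaks.

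**Figure D1:**
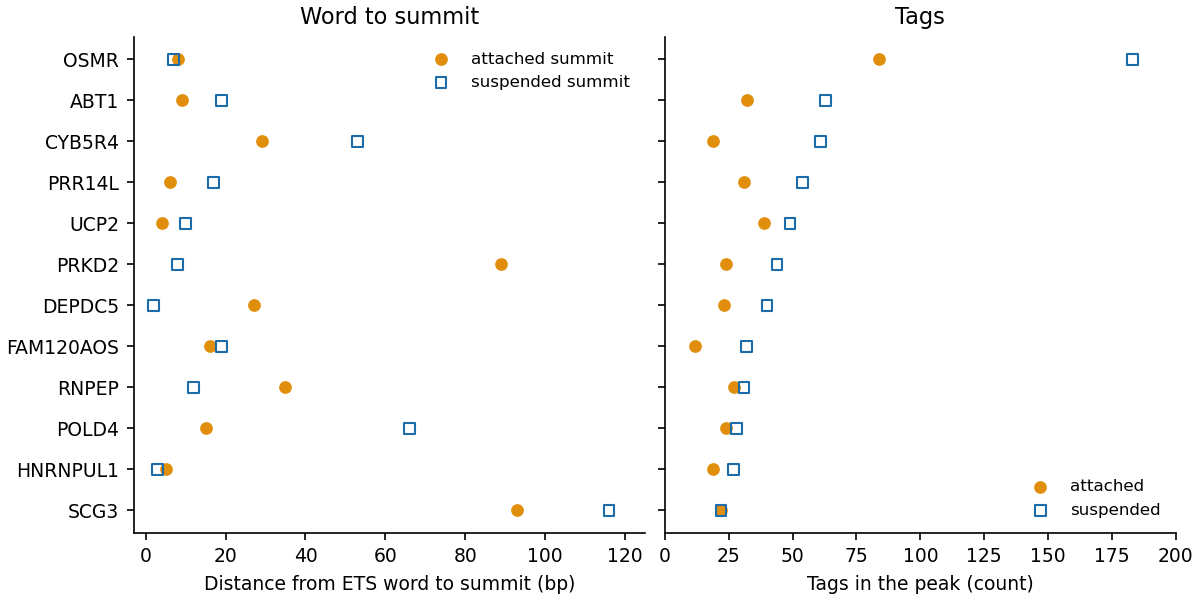
The left panel plots, for the 12 shared sites with the PU.1-type ETS word in a promoter window, the distance in bp from the word to the attached summit (filled circles) and to the suspended summit (open squares). The right panel plots the tags in each peak. Sites are named by gene and ordered by suspended tags, and at 10 of 12 the word lies within 50 bp of the attached summit.

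OSMR, which encodes the oncostatin M receptor, and its divergent transcript OSMR-DT had the most tags among these sites, 84 in attached and 183 in suspended cells. ABT1, a basal transcription activator gene, had 32 and 63 tags, and UCP2, a mitochondrial carrier gene, had 39 and 49. CYB5R4, a reductase gene, had 19 and 61 tags. These sites differed in size but not in the side that was higher, since suspended tags were at least as many as attached tags at each of the 12. The remaining members were PRKD2 (protein kinase D2), DEPDC5 (a subunit of GATOR1, which restrains MTORC1), PRR14L, FAM120AOS, RNPEP (an aminopeptidase), POLD4 (a subunit of DNA polymerase delta), HNRNPUL1 (an RNA-binding protein) and SCG3 (a granin of secretory vesicles). Over the 12 sites the median was 24 attached and 42 suspended tags, and the median ratio of depth-scaled tags was 1.77. At the 30 sites with a promoter window and neither word the medians were 28 and 43.5 tags and the ratio was 1.44. PRR14L and DEPDC5 are neighbours, and their 40-base stretches, 3732 bp apart and on opposite strands, have the same base at 31 of 40 positions. The aligner's treatment of such similar sequence was not tested.

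The word was much less common in other promoter windows. GAGGAAGT was in 2.59% of all windows. It was in 95 of 2071 windows under suspended peaks that are not shared (4.59%, interval 3.73 to 5.58). Among those under unshared suspended peaks with an authors' score of at least 100, where the peaks are nearer in strength to the shared ones, it was in 20 of 355 (5.63%, 3.47 to 8.57). These intervals and that of the shared sites do not overlap. In windows under attached peaks that are not shared the word was in 5 of 36 (13.9%, 4.67 to 29.5), an interval that overlaps that of the shared sites. Windows of neighbouring starts overlap and are not independent, and counted once per site the share was 25.5% of 47 sites. Intervals here cover counting error only.

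Wider peaks reach more windows, so stretches of equal length were also compared. A stretch reaching 50 bases to either side of the attached summit lay wholly inside a promoter window at 22 shared sites, and 9 of them held GAGGAAGT (40.9%, 20.7 to 63.6). Centred on the suspended summit it was 8 of 24 (33.3%, 15.6 to 55.3). The same stretch at unshared suspended peaks held it in 29 of 535 (5.42%, 3.66 to 7.69), and at unshared suspended peaks with a score of at least 100 in 7 of 71 (9.86%, 4.06 to 19.3). The interval at suspended summits of shared sites lies above the former and overlaps the latter. At unshared attached peaks it was 2 of 14 (14.3%, 1.78 to 42.8), which overlaps both shared intervals. Stretches of that length across all promoter windows held it in 0.83%. The shorter word AGGAAGT, which GAGGAAGT contains, was in 31.1% of the 61 windows against 8.24% of all windows. The GABPA-type word ACCGGAAGT was in 2 of 61 windows (3.28%) against 351 of all 35116. GGAAGTGA, which was also searched as a word of the SPIB type, was not more common at shared sites. It was in 2 of 61 windows (3.28%), against 3.48% of all and 6.66% of unshared suspended ones.

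The other words stood at closer shares in shared and in unshared suspended windows. CCGCCC, the GC box bound by SP factors, was in 77.0% of the 61 windows and in 73.9% of those under unshared suspended peaks, against 15786 of all 35116 windows. CCAAT, the NF-Y word, was in 41.0%, 33.3% and 34.6% of the same sets. TGACTCA, the AP-1 word, was in 0 of 61 windows, a count that allows up to 5.87%, against 4.95% of all windows. Base composition of shared windows was close to that of unshared suspended ones, with a median GC content of 66.3% and 65.7%, against 58.7% for all windows. The median observed over expected CpG was 0.77, 0.83 and 0.58 in the same order. Matches are descriptions of letters and do not show which protein bound there.

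**Figure D2:**
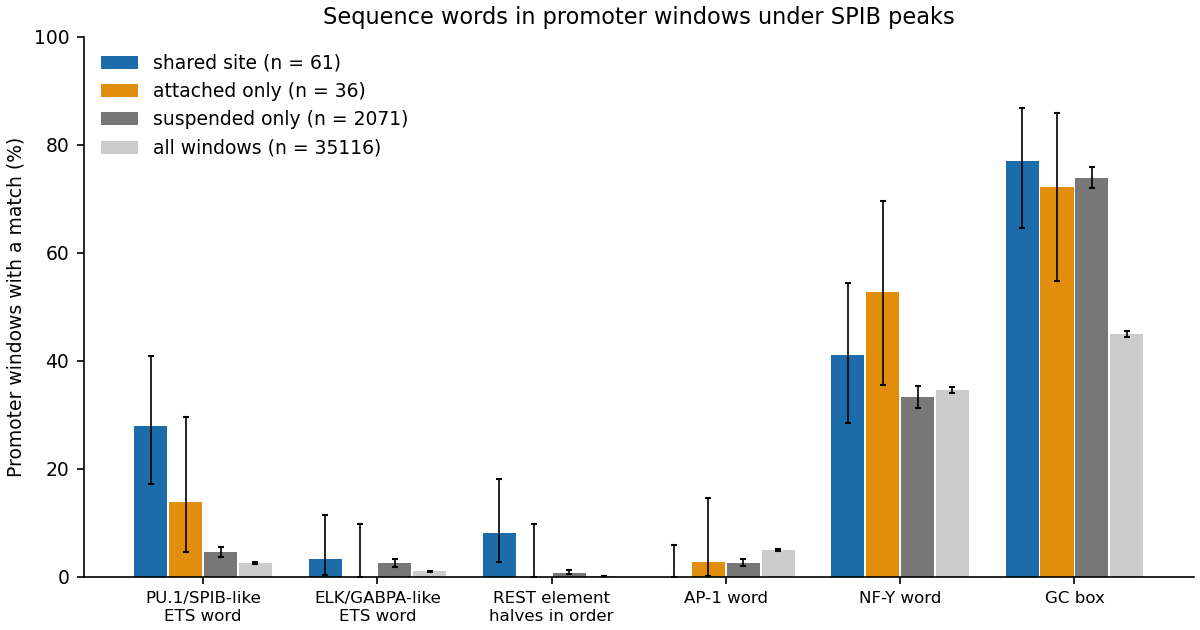
Bars give the share of promoter windows, in percent, that hold each sequence word on either strand, for windows overlapped by both peaks of a shared site (n = 61), by attached-only peaks (n = 36), by suspended-only peaks (n = 2071) and for all windows (n = 35116). Lines are exact Clopper-Pearson 95% intervals. The PU.1/SPIB-like word stands at 27.9% in shared windows against 4.59% in suspended-only ones, whereas the GC box is at 77.0% and 73.9%.

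REST elements were the other long sequence found under shared sites. Both arms in order within 25 bases were in 5 of 61 windows (8.20%, 2.72 to 18.1), against 0.154% of all windows, 16 of 2071 unshared suspended windows (0.773%) and 0 of 36 unshared attached windows (a count that allows up to 9.74%). Under unshared suspended peaks with a score of at least 100 it was 8 of 355 (2.25%, 0.978 to 4.39), an interval that overlaps that of the shared sites. With the usual gap of 2 bases and at most 1 other base in the arms, a search added after the data were seen, 5 of 61 windows held the element against 0.225% of all. The unshared suspended windows held it in 13 of 2071 (0.628%), and those with a score of at least 100 in 6 of 355 (1.69%, 0.623 to 3.64), which overlaps the shared interval as well. In both searches OGDHL counted more than once, through overlapping windows that hold the same element, so the windows are not independent. Together the searches marked 6 sites. Capitals below mark the arms, and the stretches are shown because they belong to a second factor's element in a ChIP of an ETS factor.
HTR5A (chr7:155070074-155070109, plus strand): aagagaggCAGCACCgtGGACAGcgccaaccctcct
OGDHL (chr10:49762412-49762452, minus strand): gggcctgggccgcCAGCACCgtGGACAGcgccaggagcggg
VGF (chr7:101165548-101165588, plus strand): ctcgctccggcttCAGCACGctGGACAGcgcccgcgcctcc
LHFPL5 (chr6:35805286-35805326, minus strand): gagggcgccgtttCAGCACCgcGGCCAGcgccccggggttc
SLC39A3 (chr19:2740267-2740305, minus strand): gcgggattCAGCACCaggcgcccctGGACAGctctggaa
SCG3 (chr15:51681505-51681541, plus strand): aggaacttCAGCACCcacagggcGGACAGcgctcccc

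OGDHL, a metabolic enzyme gene of the brain, had 21 attached and 32 suspended tags, with the element 3 bp from the attached and 1 bp from the suspended summit. HTR5A, a serotonin receptor gene, had 39 and 45 tags, with the element 90 bp and 61 bp from the summits. VGF, the gene of a neuropeptide precursor, had 39 and 65 tags. LHFPL5, a membrane protein gene of hair cells, had 21 and 25 tags, and SLC39A3, a zinc transporter gene, had 35 and 47. The medians over the 6 sites were 28.5 attached and 38.5 suspended tags, with a ratio of 1.29 and widths of 339 and 367 bp. SCG3 was the site that carried both kinds of element, with 22 tags in each condition.

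Whole promoter windows follow for 5 genes of the REST, autophagy and MTOR and AMPK lists with a window overlapped by both peaks. They are a selection, and the windows of other list members, such as BDNF and VGF, are not shown. Capitals mark GAGGAAGT, either REST arm and the GC box CCGCCC on either strand, and overlapping matches to different words run together. Where copies of the same word overlap, only the first is in capitals. They show a promoter with ETS and REST letters (SCG3) and a promoter with matches to both REST arms on opposite strands (SRRM3). They also show GC-box promoters of AMPK and autophagy genes (PRKAA1 and GABARAP). None of the 4 words was in the window of GLRA1.
SCG3 (chr15:51681253-51681552, plus strand): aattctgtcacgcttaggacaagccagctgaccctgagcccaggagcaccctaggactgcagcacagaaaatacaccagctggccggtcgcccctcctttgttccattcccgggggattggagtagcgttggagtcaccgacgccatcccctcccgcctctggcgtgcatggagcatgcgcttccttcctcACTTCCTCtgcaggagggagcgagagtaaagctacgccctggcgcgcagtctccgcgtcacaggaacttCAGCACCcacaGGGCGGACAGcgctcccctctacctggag
SRRM3 (chr7:76201646-76201945, plus strand): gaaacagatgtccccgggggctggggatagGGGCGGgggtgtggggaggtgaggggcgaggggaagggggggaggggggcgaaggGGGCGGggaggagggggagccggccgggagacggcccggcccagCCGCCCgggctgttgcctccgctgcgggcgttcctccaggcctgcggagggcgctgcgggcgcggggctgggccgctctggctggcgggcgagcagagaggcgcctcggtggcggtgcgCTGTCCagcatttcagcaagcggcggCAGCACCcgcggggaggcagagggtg
PRKAA1 (chr5:40798128-40798427, minus strand): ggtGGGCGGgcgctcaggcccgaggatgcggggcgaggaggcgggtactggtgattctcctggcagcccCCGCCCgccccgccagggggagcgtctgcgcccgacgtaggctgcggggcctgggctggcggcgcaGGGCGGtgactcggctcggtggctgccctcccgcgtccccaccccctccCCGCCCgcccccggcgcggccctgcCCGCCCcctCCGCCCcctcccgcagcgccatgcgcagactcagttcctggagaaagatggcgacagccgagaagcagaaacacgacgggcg
GABARAP (chr17:7242400-7242699, minus strand): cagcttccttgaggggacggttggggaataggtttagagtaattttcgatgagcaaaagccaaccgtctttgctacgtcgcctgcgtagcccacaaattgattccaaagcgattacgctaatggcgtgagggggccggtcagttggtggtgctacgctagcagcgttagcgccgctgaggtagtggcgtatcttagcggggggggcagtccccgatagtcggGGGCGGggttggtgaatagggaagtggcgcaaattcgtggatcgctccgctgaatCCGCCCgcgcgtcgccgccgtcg
GLRA1 (chr5:151924802-151925101, minus strand): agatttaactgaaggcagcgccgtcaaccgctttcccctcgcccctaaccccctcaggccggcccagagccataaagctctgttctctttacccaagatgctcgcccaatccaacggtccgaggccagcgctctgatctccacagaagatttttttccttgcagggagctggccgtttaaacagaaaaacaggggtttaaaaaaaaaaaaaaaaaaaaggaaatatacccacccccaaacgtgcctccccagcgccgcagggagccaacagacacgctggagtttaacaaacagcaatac

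PRKAA1, the gene of a catalytic subunit of AMPK, held 8 matches to CCGCCC and a GC content of 77.0%. This count includes overlapping copies that are not in capitals above. SRRM3, the gene of a neuronal splicing regulator, held 3 such matches and a GC content of 77.7%. GABARAP, an autophagosome protein gene, held 2, and SCG3 held 1. GLRA1, a glycine receptor gene, was the window of lowest GC content among the 5, with 51.3%.

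Of the 15 gene lists, the REST list had the highest share of members at shared sites. Among all protein-coding genes, 1.02% had a shared site within the gene span or 5 kb of either end, 1.86% had an attached peak and 28.6% had a suspended peak. In the list of REST target genes, 23 of 75 members had a shared site (30.7%, 20.5 to 42.4), 23 had an attached peak and 51 had a suspended peak. Each member with an attached peak therefore had one that was shared. The list was drawn up with earlier results of these data known, so the share is not independent evidence. Without the 7 members whose peaks had been named before, 17 of 68 had a shared site.

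The 23 genes fall into a few neuronal roles. NPAS4, an activity-dependent transcription factor gene, had 89 attached and 119 suspended tags, and SCRT1, a neuronal repressor gene, had 56 and 84. Of the vesicle fusion genes, SNAP25 had 16 and 40 tags, SYT7 44 and 64, and SYT2 22 and 20. CPLX2, the gene of the vesicle protein complexin 2, had 2 shared sites, one at a gene end with 30 and 39 tags and one inside with 27 and 61. Suspended tags exceeded attached tags at all of these except SYT2.

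Secreted proteins and their carriers formed another group. CHGB, a granin gene, had 14 and 34 tags, CRH, the gene of corticotropin-releasing hormone, had 33 and 32, and BDNF, a neurotrophin gene, had 10 and 11. CHAT and SLC18A3, the enzyme and the vesicle transporter of acetylcholine, lie in 1 locus and shared 1 site with 24 and 31 tags. Adhesion and scaffold genes were L1CAM (28 and 59), CELSR3 (18 and 44), SHANK2 (29 and 42), MAPK8IP1 (14 and 19) and MAPK8IP2 (24 and 40). The channel and receptor genes were CACNA1H (17 and 35) and GLRA1 (35 and 39), and the cytoskeletal ones INA (47 and 68) and STMN3 (21 and 28). SRRM3 had 23 and 40 tags. CRH and BDNF were near equal in both conditions, whereas CHGB and CELSR3 had over 2 times the depth-scaled tags in suspended cells, with ratios of 2.47 and 2.48. So did SNAP25 (2.54), the inner CPLX2 site (2.30), L1CAM (2.14) and CACNA1H (2.09). The authors' FDR of the attached peak was 100% at CHGB, CELSR3 and BDNF.

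As a group, the 23 sites of the REST list had summits that lay close together in both conditions. All 23 summit pairs lay within 50 bp, against 133 of the other 187 sites (71.1%). The median distance was 17 bp (11 to 23) against 25 bp (22 to 32), and these intervals overlapped. Among all sites with an attached FDR of at most 10%, the median was 18 bp, and 33 of 37 lay within 50 bp. REST list sites also had a higher authors' score in the suspended list, with a median of 193 against 114. None of the 23 was over 1 kb wide in suspended cells. Median widths were 310 bp attached and 417 bp suspended, and the median ratio of depth-scaled tags was 1.47 (1.32 to 1.77) against 1.36 (1.27 to 1.42) at the other sites, so the ratios overlapped. The authors' fold in the suspended list had a median of 18.2 (13.2 to 24.6) against 11.2 (9.75 to 12.6). In the attached list it was 15.7 (12.9 to 21.1) against 13.8 (12.9 to 15.4), and these intervals overlapped. At a gene end lay 12 of the 23 sites (52.2%), beside 50.8% of the others. A gene end is an end of the whole span, so a site near a start inside the span can count as inside a gene. VGF, BDNF, L1CAM and NPAS4 were classed so, with attached summits 12, 68, 374 and 777 bp from a start of the promoter windows. The same holds for sites outside the list, such as CDH23 at 292 bp.

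**Figure D3:**
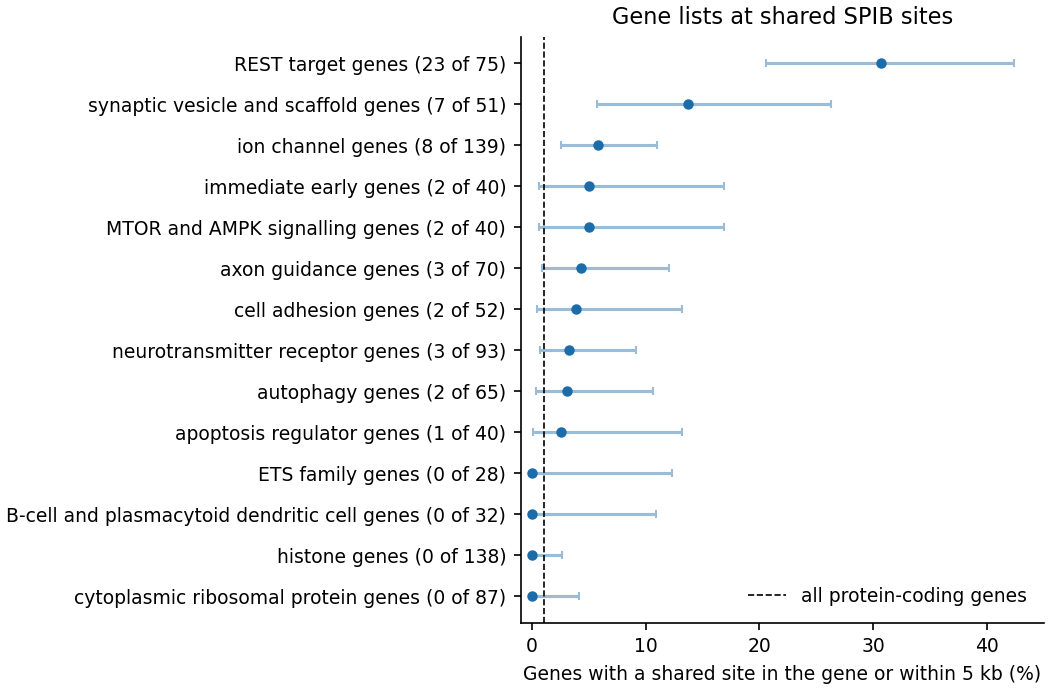
Points give the percent of each list's genes with a shared site in the gene or within 5 kb, with exact Clopper-Pearson 95% intervals, and the dashed line gives the share of all protein-coding genes (1.02%). The REST list stands at 30.7%, and the intervals of the REST, synaptic and ion channel lists lie above the line.

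The other neuronal lists overlap the REST list in part. Synaptic vesicle and scaffold genes had a shared site in 7 of 51 members (13.7%), among them DLGAP4 with 37 and 48 tags and SHANK1 with 19 and 34 beside 5 genes already given. Ion channel genes had one in 8 of 139 (5.76%), with gene-end sites at KCNK12 (31 and 43 tags), KCNH4 (21 and 37), KCNG3 (32 and 35) and SCN3B (14 and 32). The other members were CACNA1H, CACNA1B, SCN10A and KCNH7. Axon guidance genes had 3 of 70 (4.29%), SLIT1, UNC5A and EPHA10, and neurotransmitter receptor genes had 3 of 93 (3.23%), GLRA1, GRM4 and HTR5A. Together the 5 neuronal lists covered 37 of the 210 sites.

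Survival and nutrient genes at shared sites were few in number, though the shares of their lists were above the 1.02% of all protein-coding genes. MCL1, an inhibitor of apoptosis, was the only member of 40 apoptosis regulators (2.50%) and had 51 attached and 122 suspended tags at a gene end. GABARAP had 52 and 58 tags and ULK1, the autophagy-initiating kinase, had 19 and 12, which made 2 of 65 autophagy genes (3.08%). PRKAA1 had 45 and 172 tags and MLST8, an MTOR complex subunit gene, had 18 and 16, which made 2 of 40 MTOR and AMPK genes. Immediate early genes had 2 of 40 (NPAS4 and MCL1) and cell adhesion genes 2 of 52 (L1CAM and TNS3, the latter with 29 and 40 tags). The counting intervals of these lists reached below the share of all protein-coding genes.

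No member of 4 lists had a shared site. These were 28 ETS family genes, 32 B-cell and plasmacytoid dendritic cell genes, 138 histone genes and 87 cytoplasmic ribosomal protein genes. In lists of 28 and 32 genes a count of 0 allows a share of up to 12.3% and 10.9%. In those of 138 and 87 genes it allows up to 2.64% and 4.15%. All 4 limits are above the 1.02% of all protein-coding genes. Of small nuclear and other polymerase III RNA genes, 7 of 3363 (0.208%) had a shared site, against 0.166% of all noncoding genes. Among them RNVU1-31, a variant U1 small nuclear RNA gene, had 2 sites, with 12 and 11 tags at one and 15 and 15 at the other. Such genes have near-identical copies, and the handling of reads that match several copies was not tested.

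At most sites, depth-scaled tags, meaning the tags of a peak as a share of its library's filtered ChIP tags, were higher in suspended cells. The ratio of suspended to attached was above 1 at 172 of 210 sites (81.9%). Its median was 1.36 (95% order-statistic interval 1.31 to 1.44), its quartiles were 1.11 and 1.77, and it ran from 0.45 to 5.66. The median site held 25 attached and 34 suspended tags. Suspended peaks were also wider, at 153 of 210 sites, with medians of 324 bp attached and 378.5 bp suspended. Per bp of called peak the median ratio fell to 1.10, and the ratios of width and of tags rose together across sites (Spearman's rho 0.72 over 210 sites, both from the same called peaks). Exact Poisson 95% intervals of the depth-scaled tags did not overlap at 37 sites, of which 36 were higher in suspended cells. The authors' fold over local background ran the other way. Its median was 14.2 (13.3 to 15.4) attached and 11.7 (10.5 to 12.9) suspended. It was higher in the attached list at 140 of 210 sites.

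**Figure D4:**
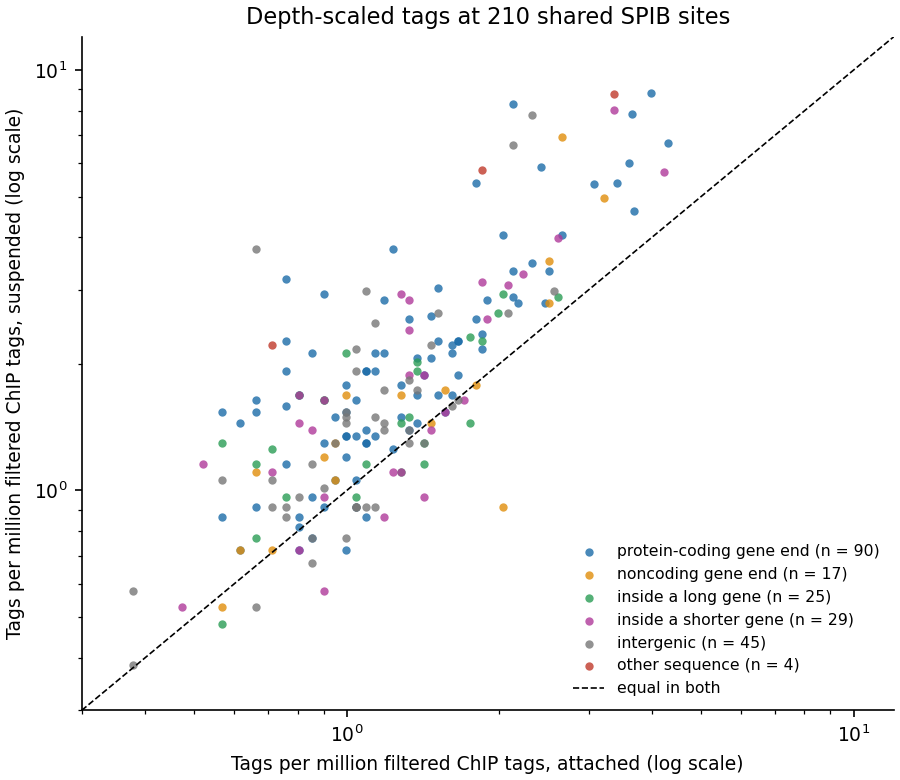
Each point is a shared site, placed by its depth-scaled tags in attached (horizontal) and suspended cells (vertical), both on log scales, and coloured by position class. The axes leave out LETM2 and the largest site on unplaced sequence. Most points lie above the dashed line of equal values, as the ratio was above 1 at 172 of 210 sites.

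Positions were classed by the attached summit, and 208 of 210 sites had the same class by the suspended summit. Of the 206 sites on chromosomes, 107 (51.9%, 44.9 to 58.9) had a gene end within 1 kb, against 27.1% (21.7 to 33.1) of the unshared attached peaks. The unshared attached peaks were weaker, with a median of 12 tags against 25. In the suspended list 52.4% of partners and 36.0% of unshared peaks were at a gene end, and the order turned with strength. Above a score of 150, 48.1% of 77 partners (36.5 to 59.7) and 67.9% of 106 unshared peaks (58.2 to 76.7) were at a gene end. In that range the unshared peaks were wider, with a median of 728.5 bp against 437.5 bp. Gene starts of the promoter windows were within 1 kb of 76 attached summits (36.9%), with 37 upstream and 39 downstream of the start. Among unshared attached peaks the share was 21.5%. In the suspended list it was 37.5% of partners and 27.8% of unshared peaks, but 36.4% and 59.4% above a score of 150. Gene starts were within 100 bp of 22 attached summits (10.7%, 6.81 to 15.7), against 6.48% of unshared attached peaks (3.75 to 10.3), and these intervals overlap. The windows cover 27305 genes, against 59679 in the gene table, and none on chromosome 8, so these shares are lower bounds.

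Protein-coding gene ends held 90 sites, and 84 of them had more depth-scaled tags in suspended cells. Their median ratio was 1.43 (1.36 to 1.55), and their median widths were 344 bp attached and 429.5 bp suspended. LETM2, a mitochondrial inner membrane protein gene, had 202 tags (Poisson interval 175 to 232) over 2375 bp in attached cells and 321 (287 to 358) over 2725 bp in suspended cells. The OSMR site grew from 793 to 1824 bp. At PRKAA1 the attached peak of 577 bp held 45 tags (32.8 to 60.2) and the suspended peak of 1534 bp held 172 (147 to 200), a ratio of 3.89. The PRKAA1 summits lay 858 bp apart, the longest distance of any site.

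Sites with over 1 kb of suspended peak were mostly of this class. Of 15 sites over 1 kb wide in suspended cells, 11 were at protein-coding gene ends, 5 were on chromosome 5 and 3 on chromosome 12. C1RL is among them only by the summed width of its 2 suspended peaks, and 14 sites had a single suspended peak over 1 kb wide, 10 of them at protein-coding gene ends and 2 on chromosome 12. The median ratio of the 15 sites was 2.21 (1.62 to 2.77), against 1.33 at all other sites, and their median summit distance was 188 bp against 23 bp. Besides the sites above they included HMGCS1, a sterol synthesis gene with 91 and 139 tags, and MCL1, whose peak was 460 bp attached and 1460 bp suspended. Their authors' fold was low, with a median of 5.78 in the suspended list against 12.1 for the other sites.

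C1RL, a complement protease-like gene, and PDGFC, a growth factor gene, were the sites where 1 attached peak met 2 suspended peaks. At C1RL the attached peak of 76 tags met partners of 69 and 56 tags. At PDGFC an attached peak of 77 tags met partners of 99 and 64 tags, of which the first overlapped by 5 bp. Tags of both partners were summed in the ratios, and the summed widths were 1499 bp and 1917 bp.

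Noncoding gene ends held 17 sites with a median ratio of 1.17 (1.02 to 1.4) and widths of 333 and 355 bp. The sites with most tags were at CCND2-AS1 near CCND2 (56 and 144), THCAT155 near PRMT8 (68 and 103) and RTBDN-AS1 (53 and 73). Cyclin D2 is a cell cycle regulator and PRMT8 an arginine methyltransferase of neurons. RNVU1-27, a variant U1 RNA gene, had the lowest ratio of all sites, 0.45, with 43 attached tags (31.1 to 57.9) and 19 suspended tags (11.4 to 29.7). It was the site whose depth-scaled interval was higher in attached cells without overlap.

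Inside genes, median ratios lay between those of noncoding and protein-coding gene ends. The 25 sites inside genes over 100 kb long had a median ratio of 1.27 (1.11 to 1.47) and widths of 311 and 344 bp, and none was over 1 kb wide. SLIT1, an axon guidance ligand gene, had 43 and 61 tags, LRRC37A2 had 55 and 60, and DNMBP, a scaffold protein gene, had 42 and 55. The 29 sites inside shorter genes had a median ratio of 1.42 (0.99 to 1.69) and widths of 316 and 390 bp. KDM6B, a histone demethylase gene, had 71 and 167 tags, NPAS4 had 89 and 119, and VRK3, a kinase gene, had 55 and 83. ULK1, AMOTL2 and KLF16 of this class were among the 5 sites of lowest ratio, with 0.64, 0.68 and 0.73, but their Poisson intervals overlapped between conditions. ATP13A4, at a gene end, had 0.73.

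Intergenic sites numbered 45, with a median ratio of 1.26 (1.12 to 1.45) and the narrowest widths, 278 bp attached and 318 bp suspended. The 3 with most suspended tags lay beside each other on chromosome 4, with CWH43 the nearest protein-coding gene 647670 bp or more away. They had 49 and 162, 45 and 138, and 14 and 78 tags, with ratios of 3.36, 3.12 and 5.66. The 4 sites on unplaced sequence had ratios from 2.61 to 3.13, and the largest held 354 attached tags (318 to 393) and 965 suspended tags (905 to 1028). For these and the chromosome 4 sites, repeat content and the handling of reads that match several places were not tested. CYB5R4 had a ratio of 3.26, which was also among the 5 highest.

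**Figure D5:**
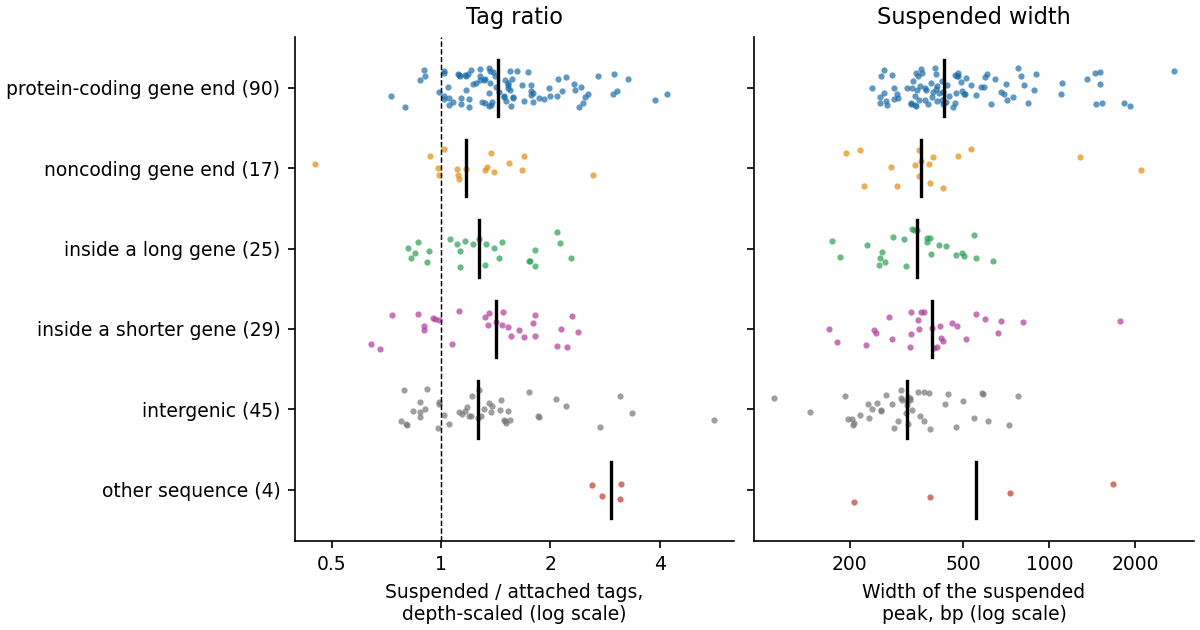
Each point is a shared site, with a black bar at the class median and the number of sites in parentheses. The left panel gives the ratio of suspended to attached depth-scaled tags and the right panel the width of the suspended peak in bp, both on log scales. Class medians of the ratio run from 1.17 to 1.43 on chromosomes and reach 2.94 for the 4 sites on unplaced sequence.

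Summits mostly stayed in place, with a median distance of 23.5 bp (19 to 30), 156 of 210 within 50 bp and 179 within 100 bp. On chromosomes, distances were longest at protein-coding gene ends, with a median of 32.5 bp, and shortest inside long genes, with 11 bp. Just inside the rule, the smallest overlaps of sites with 1 partner were 24 bp near ARHGAP40, 65 bp near LOC112267897, where this was the whole attached peak, and 73 bp at KCNG3. At PDGFC and C1RL, which had 2 partners each, the smaller overlaps were 5 bp and 51 bp. Just outside it, SLCO1A2 missed a suspended peak by 19 bp, RABGEF1 by 31 bp and HSPA8 by 59 bp, with 11, 24 and 27 attached tags. Of the 252 unshared attached peaks, 6 lay under 200 bp from a suspended peak.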

How the data were processed

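SPIB ChIP-seq peak lists of attached and suspended H1703 cells, 1 ChIP library each, were compared. The authors' peak caller was MACS 1.4.2, run against the input of the same condition, with a p cutoff of 1e-05 and 1 tag kept per position, per the file headers. Tags per peak are counts of ChIP tags, not normalized, in the deposited lists. The deposited score was taken as minus 10 times the log10 of the caller's p-value from its position in the table, since its header is a spreadsheet error. The deposited fold is a ratio of ChIP tags to local background made by the authors. FDR is the authors' value in percent. In the attached list it was 100% at 88 of the 210 sites and at 305 of all 462 attached peaks. The build is hg38, per the submitters' processing notes, and the aligner used is not given in these sources.

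Tags were divided by the filtered ChIP tags given above. Single peaks carry exact Poisson intervals, shares exact Clopper-Pearson intervals and medians order-statistic intervals, all at 95% and for counting error only. Genes came from a RefSeq table of GRCh38.p14 with 59679 genes, which gives spans without strand, exons or UTRs, so a gene end is either end. The members, the gene lists, the words searched and the rule for named genes were chosen with earlier results of these data known. The rule named, per class, the 3 sites with most suspended tags, the 5 highest and 5 lowest ratios, the 5 sites with most attached tags, list members at a gene end, split sites and sites at the edge of the rule. A site that the rule names is not reported here. REST list members inside genes and genes under sequence words were named in addition, after their values were seen. A list gene counted where a summit lay in it or within 5 kb. Overlap, position and word searches were tested on simulated data. Python 3.11.15, numpy 2.4.6, pandas 2.3.3, SciPy 1.17.1 and matplotlib 3.10.9 were used.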

Additional observations from a re-analysis of the deposited data

How the results depend on the processing

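In 65 recomputed values of 8 results, 45 stayed within 1.5 times the count or within the interval of the share or median, 20 moved and 0 reversed. Overlap of at least 50% of the narrower peak, reciprocal overlap, a gap of up to 200 bp and chromosomes 1 to 22 and X moved none of the 6 planned results. At an attached FDR of at most 10%, 37 sites remained, 42.9% of them at a gene end, with widths of 386 and 412 bp, a summit distance of 18 bp, 6 REST genes, and GAGGAAGT in 0 of 3 windows, too few to read. At an attached score of at least 100 there were 46 sites, with a ratio of 1.28, an attached width of 391 bp and a summit distance of 17.5 bp. At a suspended score of at least 100 there were 132 sites, with a ratio of 1.504 and a suspended width of 404 bp, and at a suspended FDR of at most 1% the ratio was 1.49. The gene-end share was 43.7% with a window of 500 bp and 43.7% with protein-coding genes only. Per bp of peak the ratio was 1.10. REST genes numbered 12 within 1 kb of a gene end. The GAGGAAGT share was 40.9% in stretches around attached summits. The REST and GAGGAAGT alternatives were chosen after seeing the data.

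No paired analysis was possible because each condition has 1 ChIP library. Low depth limits single sites, since the median site held 25 attached tags. Most attached peaks have a high authors' FDR, so a suspended peak with no partner is not shown to be unbound in attached cells.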

Other observations

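Shared sites were spread unevenly over chromosomes. Of the attached peaks on chromosome 19, 18 of 28 were shared (64.3%), and on chromosome 17, 18 of 29 (62.1%). On chromosome 5 it was 14 of 49 (28.6%) and on chromosome 6 it was 6 of 29 (20.7%). The 14 shared sites of chromosome 5 had a median suspended width of 727 bp, against 378.5 bp over all shared sites. The strongest attached peaks were nearly all shared, with 13 of 13 at a score of at least 150, 33 of 34 from 100 to 150, and 126 of 366 (34.4%) from 50 to 75. The site of highest authors' fold in the suspended list, 49.2, was intergenic with PBX3 as the nearest protein-coding gene, and had 22 attached and 45 suspended tags. LIN28A, the gene of a microRNA-processing repressor of stem cells, had 31 and 46 tags, and HPCA, the gene of a neuronal calcium sensor, had 46 and 58.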
